A study of Mus musculus with 797 samples.

Results

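Glutamatergic nuclei sorted after injection of the enhancer vector AiE0445h_3xC2 were compared with glutamatergic nuclei from 10 other vectors. They were chosen from 528 labelled nuclei of library set AB-S40331 by 4 measured values. A nucleus had at least 50000 reads, at least 1000 genes with a read, at least 10 CPM of Slc17a7 (CPM is reads scaled to 1e6 per nucleus), and under 10 CPM of Gad1 and Gad2 together. The rule kept 31 of the 32 nuclei labelled AiE0445h_3xC2 in that set, of 797 nuclei in the whole series. On the other side were 190 nuclei of the 10 vectors that had at least 10 nuclei each, with every vector given the same weight. A further 22 nuclei came from vectors with fewer nuclei and were not compared.

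All groups came from C57Bl/6J mice that received 1 adeno-associated virus in the PHP.eB capsid, which crosses from blood to brain, at a dose of 5e11 vector genomes per mouse in young adulthood. Nuclei were prepared 3 to 4 weeks later and sorted for yellow fluorescence from H2B-SYFP2, a histone fused to a fluorescent protein. Between the groups, only the enhancer or promoter in the virus differs by label. The comparison vectors were AiE0779m (30 nuclei), AiE0447h (27), AiE0078h (22), AiE0140h (22), AiE0401h (21), AiE0387m (18), AiE0410m (15), AiE0743m_3xC2 (14), AiE0391h (11) and hSyn1 (10). No animal is named, so nuclei of 1 vector share an unknown number of mice, 1 vector was taken as 1 sample, and AiE0445h_3xC2 has no replicate. No uninjected control was analysed here.

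Excitatory neurons of the forebrain load synaptic vesicles with glutamate. Most cortical ones use the transporter VGLUT1, the product of Slc17a7, while inhibitory neurons make GABA with the enzymes encoded by Gad1 and Gad2. An enhancer in such a virus sets which cells make the fluorescent protein, and thus which nuclei a sorter collects. The striatum, the region on every label, consists mostly of inhibitory spiny projection neurons and receives its glutamatergic input largely from cortex and thalamus.

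Slc17a7, which the rule used, ranged from 239 to 1803 CPM in the 31 nuclei, with a median of 807 CPM. The lowest value was far above the limit of 10 CPM. Gad1 and Gad2 together reached 9.17 CPM in the nucleus nearest that limit. The 1 nucleus left out had 813 CPM of Gad1 and Gad2 and 248 CPM of Slc17a7. Among all nuclei of the set that met the depth limits, 7 had Slc17a7 reads below the limit. The 190 comparison nuclei had a median of 783 CPM of Slc17a7 and a lowest value of 62.4 CPM.

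Reads per AiE0445h_3xC2 nucleus ranged from 216913 to 443403 (median 303109), and medians of the comparison vectors from 226512 to 345616. A median of 2627 genes had a read, against 2354 to 2950 in the comparison vectors. Mitochondrially encoded genes held 0.00846% of reads on average. No nucleus had counts identical to another. Some nuclei of the 2 library sets used here carry the same pair of indices, including 5 pairs under AiE0445h_3xC2. Over the more often read genes only, the 3 pairs in which both nuclei were glutamatergic had a median Pearson r of 0.211 in log2(CPM + 1). The 152 pairs with different indices had the same median.

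The label glutamatergic was checked against genes the rule did not use. Snap25, a vesicle fusion protein of all neurons, had a read in 31 of 31 nuclei, which cannot tell excitatory from inhibitory neurons. Neurod6, a transcription factor of cortical excitatory neurons, had a read in 17 of 31 nuclei, or 54.8% (95% Clopper-Pearson interval 36.03 to 72.7%, counting error only). Its share in the comparison vectors ran from 20 to 60.0%. Tbr1, another such factor, had a read in 12 of 31 nuclei (38.7%, against 18.2 to 50.0%). Of 18 markers of inhibitory interneurons, 10 had no read in any of the 31 nuclei, including the GABA vesicle transporter Slc32a1 and the factors Dlx1, Dlx2 and Lhx6. Their summed level was 151 CPM, between the lowest (26.3 CPM) and the highest (227 CPM) comparison vector. The limit on Gad1 and Gad2 removes inhibitory neurons, so the low level of these markers is no independent support of the label.

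Several defining markers of the region on the label were read in few or no nuclei. Of 20 genes typical of spiny projection neurons, 7 had no read in any AiE0445h_3xC2 nucleus, among them the receptors Drd2 and Adora2a. The 20 genes summed to 755 CPM, inside the comparison range of 669 to 978 CPM. Drd1 had a read in 2 of 31 nuclei (6.45%), and Ppp1r1b, the dopamine-regulated phosphatase inhibitor DARPP-32, in 4 of 31 (12.9%). Spiny projection neurons make GABA, and the rule removed nuclei with Gad1 or Gad2 reads above the limit, so these shares are not independent of it. Pde10a, a phosphodiesterase abundant in those neurons, had a read in 27 of 31 nuclei (87.1%), above the 59.3 to 80.0% of the comparison vectors. No label used here names cortex, and the source of these cells within the dissection was not tested.

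Of the 14 astrocyte markers, 3 were at 0, among them the water channel Aqp4, and Gja1 and Gfap each had a read in 1 nucleus (3.23%). Aldoc, a glycolytic enzyme, had a read in 5 of 31 nuclei (16.1%), and Slc1a2, a glutamate transporter, in 27 of 31 (87.1%). The 14 genes summed to 479 CPM, inside the comparison range of 306 to 621 CPM. The 14 oligodendrocyte and precursor markers summed to 115 CPM, below the 155 to 510 CPM of the comparison vectors, and 10 of the 14 were at 0. Of 15 microglial and vascular markers, 8 were at 0, and the sum of 96.1 CPM lay inside the comparison range of 24.9 to 152 CPM.

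Upper layer markers as a list lay inside the range of the other vectors. Of 12 such genes 8 were described, 4 above 0 and 4 below, with a median of 0.06 on the log2 scale of mean levels and a sum of 1095 CPM against 821 to 1343 CPM. Rorb, Rspo1 or Scnn1a, the part of them typical of the granular layer, had a read in 7 of 31 nuclei (22.6%, against 9.09 to 40.7%). Another part lay higher: at least 1 of Cux2, Lamp5 and Calb1, genes typical of upper layers, had a read in 27 of 31 nuclei (87.1%, interval 70.2 to 96.4%). That share ran from 53.3 to 80.0% in the comparison vectors, whose whole range lay below it but partly inside its interval. Lamp5, a lysosome-associated membrane protein, was the most often read of them. It had a read in 21 of 31 nuclei (67.7%, interval 48.6 to 83.3%) against 33.3 to 60.0%, with levels from 0 to 2743 CPM and a median of 418 CPM. Cux2 alone, in 10 of 31 nuclei (32.3%), and Calb1, in 13 of 31 (41.9%), lay inside the comparison ranges of 5.56 to 40.9% and 25.9 to 60.0%.

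Deep layer genes were also read. Foxp2, Tle4 or Syt6, typical of the deepest layer, had a read in 12 of 31 nuclei (38.7%), inside the comparison range of 10 to 40.9%. Syt6, a synaptotagmin, had a read in 6 of 31 nuclei (19.4%, interval 7.45 to 37.5%), above every comparison vector (0 to 14.8%). Etv1, a factor of deep projection neurons, had a read in 7 of 31 nuclei (22.58%), barely above the highest other vector (22.22%). Fezf2 (19.4%) and Bcl11b (9.68%), 2 other factors of such neurons, lay inside their ranges of 0 to 27.3%. Upper markers without Foxp2, Tle4 or Syt6 were found in 18 nuclei (58.1%, against 31.8 to 70.0%). Upper and deep markers occurred together in 9 nuclei (29.03%), against 0 to 27.3% elsewhere. The 31 nuclei thus carried markers of several layers.

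**Figure D1:**
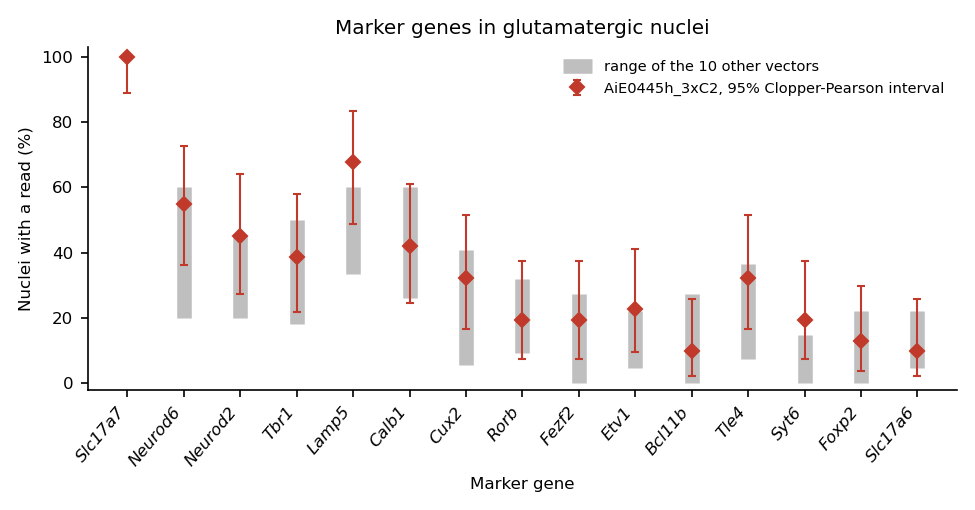
Share of glutamatergic nuclei with at least 1 read (percent, vertical axis) of each marker gene (horizontal axis). Red diamonds are the 31 AiE0445h_3xC2 nuclei with 95% Clopper-Pearson intervals and grey bars the range over 10 other vectors. The diamonds of Lamp5 (67.7%) and Syt6 (19.4%) stand above the grey bars, and that of Etv1 (22.58%) at the top of its bar.

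Levels of single genes were compared as the mean of log2(CPM + 1) over the nuclei of a vector. Of 17882 genes with a read, 4796 were described, namely those read in at least 20% of nuclei as an equal-weight mean over vectors. A gene was taken as past the limit where AiE0445h_3xC2 differed from the mean of the other vectors by at least 2 log2 units and lay outside the range of all 10. This limit is a description of size and carries no error rate.

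By that limit 7 of 4796 genes were higher (0.146%) and 9 were lower (0.188%) in AiE0445h_3xC2. Under the same limit AiE0779m, the vector nearest in number of nuclei, had 28 higher genes (0.584%) and 5 lower (0.104%). AiE0447h, the next nearest, had 6 higher (0.125%) and 65 lower (1.36%). These 3 comparisons share nuclei. In total AiE0445h_3xC2 had 16 genes past the limit, fewer than AiE0779m on its high side alone or AiE0447h on its low side alone. Mean levels of AiE0445h_3xC2 and of the other vectors had a Pearson r of 0.922 over the 4796 genes, which are not independent replicates.

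The test on reads summed per vector, edgeR's quasi-likelihood test with 1 sum against 10, called no gene. With Benjamini-Hochberg adjustment, 0 of 15802 genes were higher (0%) and 0 lower (0%), and the smallest adjusted p was 0.477. At an unadjusted p under 0.05 it gave 352 genes (2.23% of those tested), 245 higher and 107 lower. limma on the vector means also called 0 of 4796 genes, with 39 at an unadjusted p under 0.05 (0.813%). DESeq2 called 0 higher and 248 lower genes, 201 of which had no read in the AiE0445h_3xC2 sum. With 1 sum on 1 side, its spread is assumed to be that of the other vectors.

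The 7 genes past the limit on the high side hold varied functions. Adgra1, an orphan adhesion G protein-coupled receptor (ENSMUSG00000025475, chr7:139834174-139878088, + strand), had a read in 24 of 31 nuclei. Its level ran from 0 to 2596 CPM with a median of 379 CPM. The mean was 6.83 ± 4.06 log2 units (SD, n = 31 nuclei) against 4.23 ± 1.19 (SD, n = 10 vectors). The highest other vector, AiE0410m, had a mean of 6.08, below that of AiE0445h_3xC2 as the limit required. The difference from the mean of the other vectors was 2.60. edgeR gave Adgra1 an adjusted p of 0.9999.

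Chchd10 encodes a protein of the mitochondrial intermembrane space (ENSMUSG00000049422, chr10:75933130-75937747, + strand). It had a read in 25 of 31 nuclei (80.6%, against 20 to 63.6%), with levels from 0 to 369 CPM and a median of 92.2 CPM. Its mean of 5.31 ± 2.89 (SD, n = 31 nuclei) lay above the other vectors (2.90 ± 0.98, SD, n = 10, highest 4.52). Timm17a, a subunit of the inner membrane import channel of mitochondria (chr1:135295213-135313778, − strand), had a mean of 4.65 ± 4.17 against 2.63 ± 0.59 (highest 3.78). Both are nuclear genes, and the reads of mitochondrially encoded genes were near 0.

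Alkbh8 and Lage3, both transfer RNA modification genes, were also among the 7. Alkbh8, a methyltransferase for the wobble uridine of transfer RNA (chr9:3335140-3391154, + strand), had a read in 17 of 31 nuclei (54.8%, against 9.09 to 40%) and a mean difference of 2.32. Lage3, a subunit of the KEOPS complex that modifies transfer RNA (chrX:74351276-74353618, − strand), had a read in 19 of 31 nuclei (61.3%, against 9.52 to 55.6%) and a difference of 2.24. Alkbh8 reached 916.5 CPM and Lage3 443.5 CPM, and each was at 0 in the remaining nuclei.

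Mib2, an E3 ubiquitin ligase of the Notch ligand pathway (chr4:155654677-155669198, − strand), differed by 2.20 and had a read in 15 of 31 nuclei (48.4%, against 6.67 to 35.7%). Gramd1a, a sterol carrier at contacts of endoplasmic reticulum and plasma membrane (chr7:31130127-31155896, − strand), differed by 2.16. It had a read in 22 of 31 nuclei (71.0%, against 35.7 to 63.6%) and a median of 511 CPM. For all 7 higher genes the SD between nuclei exceeded the difference.

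On the low side Cacng3 stood furthest away. It encodes a TARP, an auxiliary subunit of AMPA receptors (ENSMUSG00000066189, chr7:122670492-122769393, + strand). Only 9 of 31 nuclei had a read (29.03%, against 29.6 to 80.0%), and the highest level was 548 CPM. The mean was 1.81 ± 3.21 (SD, n = 31 nuclei) against 4.69 ± 1.40 (SD, n = 10 vectors), a difference of -2.89. The nearest vector, AiE0447h, had a mean of 2.17, so the gap to it was smaller than the spread among the others. Cacng3 had an edgeR adjusted p of 0.522 and a DESeq2 adjusted p of 0.0388.

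Kif5c, a heavy chain of kinesin, the motor of axonal transport (ENSMUSG00000026764, chr2:49619298-49774778, + strand), had a read in 6 of 31 nuclei. That is 19.4%, against 35.7 to 63.3% in the other vectors. Its levels in those 6 nuclei reached 378 CPM and the other nuclei were at 0. The mean of 1.30 ± 2.83 (SD, n = 31 nuclei) was 2.53 log2 units below 3.83 ± 0.63 (SD, n = 10 vectors), with the lowest other vector, AiE0743m_3xC2, at 2.52. The adjusted p for Kif5c was 0.653 in edgeR and 0.0127 in DESeq2.

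Of the other lower genes, 3 act on RNA. Tardbp, the RNA-binding protein TDP-43 (chr4:148612382-148627019, − strand), had a read in 13 of 31 nuclei (41.9%, against 57.1 to 81.8%) and a difference of -2.47. Ncl, nucleolin, a major protein of the nucleolus (chr1:86344719-86359400, − strand), had a read in 10 of 31 nuclei (32.3%, against 48.1 to 73.3%) and a difference of -2.17. Wdr33, the cleavage factor that reads the polyadenylation signal (chr18:31804090-31907397, + strand), differed by -2.14. Neither Tardbp, Ncl nor Wdr33 passed in edgeR (adjusted p 0.9999 each).

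The remaining lower genes were Lnpk, Gfra4, Bex2 and Ccdc88a. Lnpk, lunapark, which stabilises junctions of endoplasmic reticulum tubules (chr2:74520291-74579435, − strand), differed by -2.33, with a read in 13 of 31 nuclei. Gfra4, a receptor of the GDNF family (chr2:131039632-131043088, − strand), had a read in 3 of 31 nuclei (9.68%, against 20 to 46.7%) and differed by -2.08. Bex2, a small X-linked brain protein (chrX:136066564-136068236, − strand), also differed by -2.08. Ccdc88a, the actin-binding protein girdin (chr11:29373658-29510808, + strand), differed by -2.02. The means of Bex2 (3.64) and Ccdc88a (4.64) were close below the lowest other vectors, at 3.97 and 4.91.

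**Figure D2:**
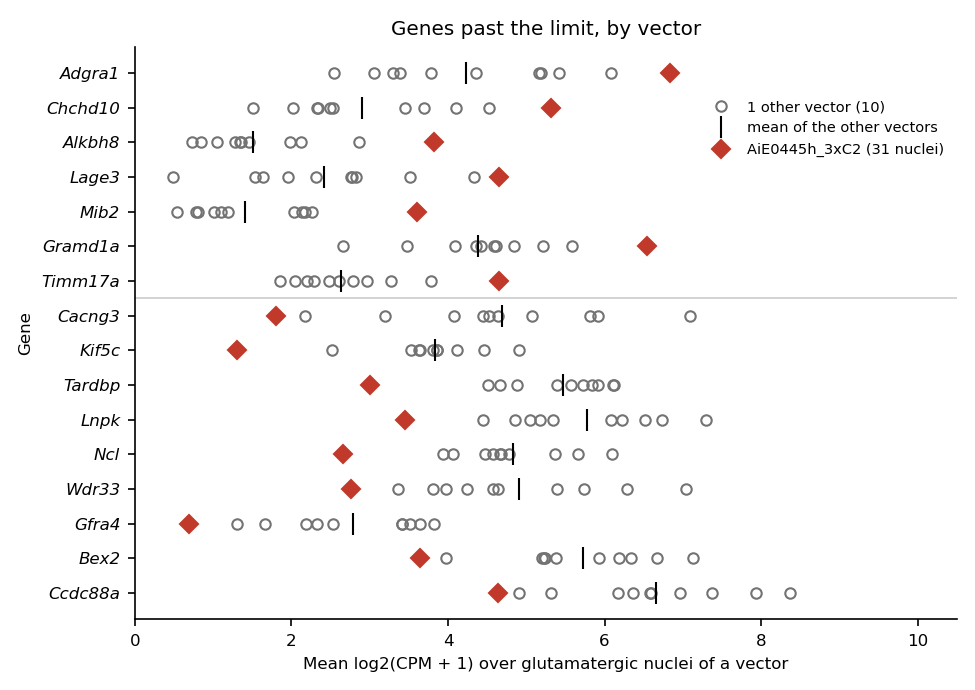
Mean log2(CPM + 1) over the glutamatergic nuclei of a vector (horizontal axis) for the 16 genes past the limit (vertical axis, 7 higher above the line and 9 lower below). Open circles are the 10 other vectors, black ticks their mean and red diamonds AiE0445h_3xC2, which lies outside the circles in every row because the limit required it.

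The same genes were compared on summed reads, where a few nuclei with many reads weigh more. When reads were summed over nuclei before scaling, Adgra1 stood at 529 CPM in AiE0445h_3xC2 against 171 to 495 CPM in the other vectors. Chchd10, at 98.01 CPM, lay just below the highest other vector (98.29 CPM). Wdr33, at 177 CPM, and Bex2, at 201 CPM, lay inside the ranges of 114 to 422 CPM and 198 to 393 CPM. Cacng3 (60.3 CPM, against 111 to 508 CPM) and Kif5c (39.1 CPM, against 73.3 to 276 CPM) lay below every other vector on that scale too. On the log2 scale of summed CPM, only these 2 of the 16 genes were still past the limit.

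Reads of sex-linked genes divided the AiE0445h_3xC2 nuclei. Y-linked reads without Xist, the RNA that silences an X chromosome in female cells, were found in 20 nuclei, with label numbers 9 to 29. No nucleus numbered 30 to 40 had a Y-linked read (11 nuclei), and 9 of those had Xist. Nuclei of both sexes therefore stand under 1 vector label, and sex, animal and number cannot be told apart within it. Among the comparison vectors, AiE0140h had 8 nuclei with Xist and no Y-linked read, AiE0410m had 7, AiE0447h had 6 and AiE0078h had 2, while the other 6 had none.

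Adgra1 levels differed across this division. Adgra1 had a mean of 9.72 ± 1.40 log2 units (SD, n = 9 nuclei) in AiE0445h_3xC2 nuclei with Xist, all 9 of which had a read. In the 20 nuclei with Y-linked reads the mean was 5.32 ± 4.28 (SD), with a read in 13. AiE0410m had 9.33 with Xist and 2.32 with Y-linked reads. The order was the other way in AiE0140h, at 4.72 and 5.92, and in AiE0447h, at 1.45 and 3.85. Among nuclei with Y-linked reads alone, a comparison chosen after the data were seen, the Adgra1 difference was 1.23 and no longer past the limit. Lage3, Wdr33, Bex2 and Ccdc88a were not past it there either, and 11 of the 16 genes were. The part of sex or animal in this result was not tested.

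The lower genes were below the comparison mean on both sides of the division, by amounts whose difference was not tested. Lower and higher genes alike were chosen by their mean over nuclei that include both sides. Each side therefore tends to keep the sign of the whole, and the shared signs are no independent support. Cacng3 differed by -3.15 among nuclei with Y-linked reads (20 against 147 nuclei) and by -2.16 among nuclei with Xist (9 against 21 nuclei of 3 vectors). Kif5c differed by -2.48 and -2.53, Tardbp by -2.59 and -3.51, and Lnpk by -2.15 and -2.24. Wdr33 differed by -1.71 and -3.601, and Ncl by -2.68 and -1.47. The other 3 lower genes were also below the mean in both kinds of nuclei. Of the 7 higher genes, 7 were above it with Y-linked reads and 6 with Xist, the exception being Gramd1a at 2.80 and -0.38.

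**Figure D3:**
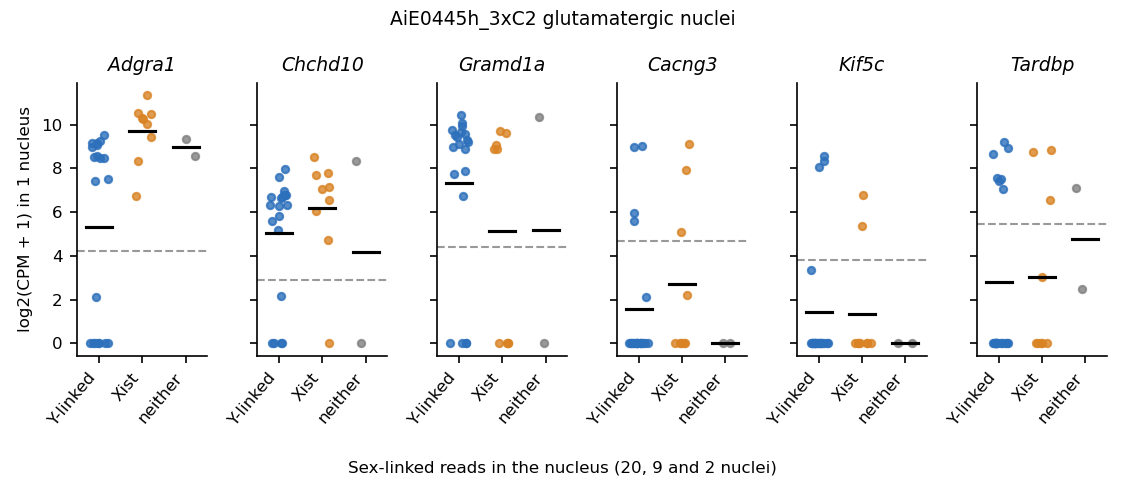
Level of 6 genes in each AiE0445h_3xC2 nucleus (log2(CPM + 1), vertical axis), grouped by sex-linked reads (horizontal axis: 20 nuclei with Y-linked reads, 9 with Xist, 2 with neither). Dots are nuclei, black bars group means and dashed lines the mean of the 10 other vectors. Adgra1 is read in all 9 nuclei with Xist, and most nuclei of Cacng3 and Kif5c are at 0 in both main groups.

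A second library set, AB-S40317, held 8 nuclei labelled AiE0445h_3xC2, of which 5 met the rule, all 5 with Y-linked reads. They were compared with 84 nuclei of 10 vectors, 6 of these vectors also in the first comparison. The minimum per vector was lowered there from 10 to 3 nuclei, and some of the equally weighted vectors had only 3. The 5 nuclei had a median of 5820 genes with a read and 1.21% mitochondrial reads. Comparison vectors ranged from 2434 to 7910 genes and from 0.0121 to 2.43%. The median difference over the 4796 genes was 1.004 there, and 70.2% of them were above 0, so directions were also read against that median.

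Of the 7 higher genes, 6 were above 0 in the second set but 4 were above its median difference. Chchd10 differed by 3.73 and Timm17a by 3.86, each with a read in 5 of 5 nuclei. Adgra1, at 1.25, and Mib2, at 1.01, were near the median, and Lage3 was at -0.71. In the first set the Adgra1 difference was 1.23 among nuclei with Y-linked reads. Of the 9 lower genes, 3 were below 0 and 5 were below the median difference. Cacng3 differed by 0.60 there and Tardbp by 0.76, whereas Kif5c differed by 2.96, Ncl by 2.78, Gfra4 by 2.56 and Bex2 by 3.63. Only 1 of the 16 genes, Timm17a, lay outside the range of the other vectors in the first direction. The part of RNA content per nucleus in these values was not tested.

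**Figure D4:**
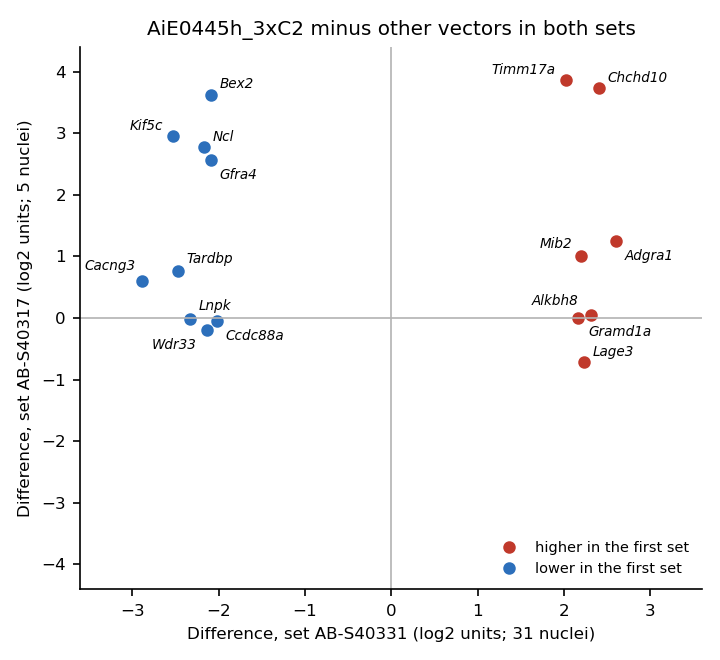
Difference between AiE0445h_3xC2 and the mean of the other vectors in log2(CPM + 1) for the 16 genes, in set AB-S40331 (horizontal axis, 31 nuclei) and in set AB-S40317 (vertical axis, 5 nuclei). Red dots are genes higher and blue dots genes lower in the first set; Kif5c, Ncl, Gfra4 and Bex2 lie in the upper left, with opposite signs.

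Medians of the gene lists for neuronal functions ran from -0.42 (immediate early genes) to 0.41 (cyclic AMP signalling). The median of all described genes was -0.04, with 2276 genes above 0 and 2520 below. Synapse adhesion genes stood at -0.27 over 26 described members, 10 above 0 and 16 below. Pallial transcription factors stood at -0.13 over 8, 3 above 0 and 5 below. Neither list had a gene past the limit. Of all 4796 described genes, 212 had a mean above all 10 vectors and 204 a mean below all 10. A list member in that position is therefore not unusual. The synaptic release list had 23 described members, 12 above 0 and 11 below, a median of 0.02 and none past the limit. On summed reads the whole list stood at 10625 CPM, above the comparison range of 8960 to 10224 CPM. Vamp2, the vesicle SNARE, had a mean of 6.86 against 5.50 (difference 1.37), above all 10 vectors. Bsn, the active zone scaffold bassoon, differed by -1.51, and Rims1, which primes vesicles, by -1.40. Snap25 differed by 0.27.

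Receptors for glutamate were mixed. Of 14 described ionotropic receptor genes and auxiliary subunits, 7 were above 0 and 7 below, with a median of -0.00 and 1 past the limit, Cacng3. Gria4, an AMPA receptor subunit, differed by -1.12 and was below all 10 vectors. Cacng2, the TARP stargazin, differed by -0.83. The metabotropic list had 3 described members, 1 above 0 and 2 below, with a median of -0.10. Grm7, a presynaptic receptor, differed by 1.09 and was above all 10 vectors, Homer1, a scaffold of these receptors, by -0.38 and Grm5 by -0.10.

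The glutamate uptake and recycling list had 9 described members, 6 above 0, with a median of 0.27. Got1, an aspartate aminotransferase, differed by 1.49. Slc1a2, the main glutamate transporter of astrocytes, had a read in 27 of 31 nuclei (87.1%, against 40 to 86.4%) and differed by 1.23. The sum of the astrocyte markers lay inside the comparison range, and the part of astrocyte RNA in the Slc1a2 value was not tested. None of these genes was past the limit.

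Signalling genes of the cyclic AMP pathway had a median of 0.41 over 18 described members, 13 of them above 0. Pde4b, a phosphodiesterase, differed by 1.44, Pde10a by 1.08 and Adcy9, an adenylate cyclase, by 0.92, while Prkaca, the catalytic subunit of protein kinase A, differed by -0.93. The calcium and calmodulin list stood at -0.01 over 24 members, led by Camk2b at 1.25 and Calm3 at 1.09. Potassium channels had a median of -0.18 over 19 members, with Kcnt1 at 1.40 and Kcnma1 at -1.37. Sodium, calcium and HCN channels had a median of 0.01 over 15 members, with Cacna1b at 1.31.

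Immediate early genes, which neurons switch on with activity, lay mostly below 0. Of 12 described members 9 were below 0, with a median of -0.42, and 0 were past the limit. Arc differed by -1.57, Fos by -1.45, Dusp6 by -1.29 and Bdnf by -1.19. The mean of Arc (4.16) was below all 10 vectors, but close to the lowest of them (4.25). The other 3 described members were above 0, among them Egr1 at 0.72. Ier2 had no read in 31 nuclei (3 counts of the 31 would be a share of 9.68%), against 6.67 to 30% of nuclei elsewhere, and Egr1 was read in 20 of 31 (64.5%, against 40 to 90.9%). The list summed to 2321 CPM, inside the range of 2129 to 5581 CPM. How long each brain was handled before sorting was not given in the sources used here.

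Protein folding genes had a median of -0.44 over 11 members, with the chaperone Hspa5 at -1.32 and Hsp90aa1 at 0.81, above all 10 vectors. The whole list summed to 3275 CPM, below the comparison range of 3432 to 4615 CPM. Splicing regulators had a median of -0.30 over 18 members, with Rbfox2 at -1.25 and Rbfox1 at 1.01. Cytoplasmic housekeeping genes stood at -0.41 over 15 members, with Gapdh at 1.14 and Cox4i1 at -1.06. Of 16 interferon response genes, 0 were described, and 11 had no read in AiE0445h_3xC2. p53 response genes had a median of -0.02 over 6 members, near that of all genes.

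**Figure D5:**
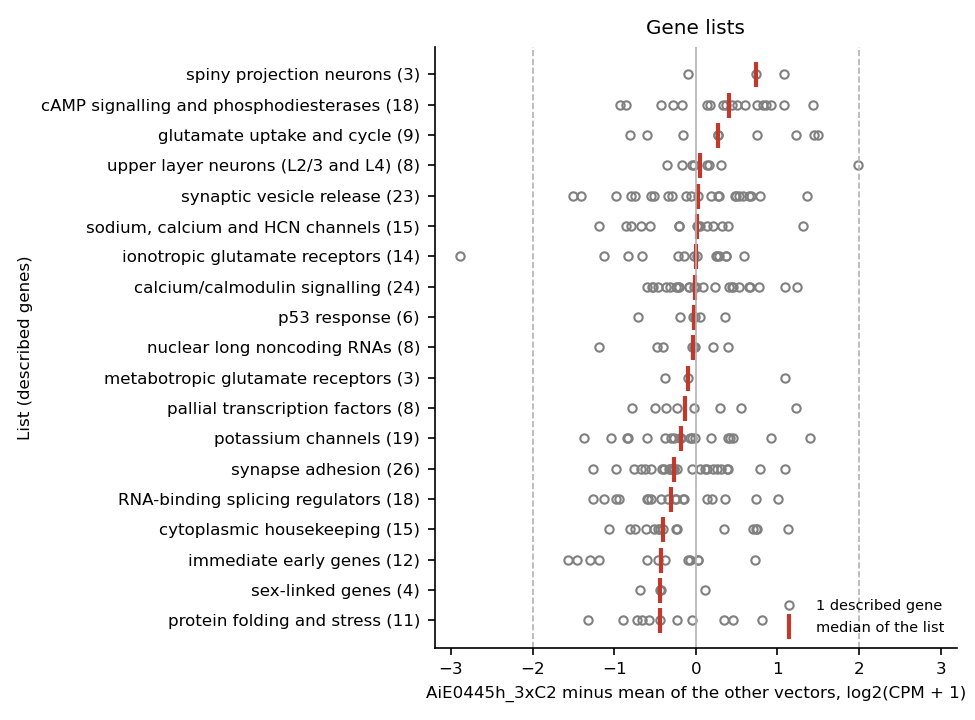
Difference between AiE0445h_3xC2 and the mean of the other vectors in log2(CPM + 1) (horizontal axis) for described genes of each list (vertical axis, number of described genes in brackets). Circles are genes, red ticks list medians and dashed lines the limit of 2. The only circle beyond a dashed line is Cacng3.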

How the data were processed

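Single nuclei were profiled with SMART-Seq v4 and Nextera XT, per the labels. The authors deposited whole-number read counts for each gene in each nucleus; the reads carry no molecular identifiers. STAR 2.7.2a and the build mm10 are named in the processing notes of the submitters. How reads were counted (tool, annotation, strand, introns, multiple hits) is not given in the sources used here, so overlapping genes, and families such as Bex and Kif5, are uncertain. Of 2501 columns, 709 were matched by library name and 1792 were not used here. Symbols were found for 32158 of 32285 identifiers; other rows held 0.0908% of reads. Positions are GENCODE M21 on mm10.

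Counts were scaled to CPM and averaged as log2(CPM + 1). Intervals cover counting error only, since PCR copies are not independent molecules. edgeR 4.0.16 (TMM, filterByExpr), DESeq2 1.42.0 and limma 3.58.1 in R 4.3.3 tested 1 vector against 10, so p-values measure the spread between vectors. Scripts (Python 3.11.15) were tested on simulated data. Named genes are up to 12 per direction past the limit, without predicted genes, and up to 4 of the largest differences per list; defining markers are given by share of nuclei, and Snap25 and Egr1 were added after their values were seen. Members and the 29 gene lists were chosen with earlier results of these data known. Alternatives covered the pseudocount, thinning to 100000 reads, weighting, scaling, the nuclei kept and leaving out each vector.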

Additional observations from a re-analysis of the deposited data

Results flagged for a closer look

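Gramd1a had opposite directions in the AiE0445h_3xC2 nuclei divided by sex-linked reads. The difference from the other vectors was 2.80 log2 units among nuclei with Y-linked reads and -0.38 among nuclei with Xist reads. This difference between the 2 kinds of nuclei was not tested, because each side has 1 AiE0445h_3xC2 value and the comparison with Xist reads rests on 9 nuclei against 21 of 3 vectors.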

How the results depend on the processing

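The main counts were 7 higher and 9 lower genes by size, and 0 and 0 in edgeR. With log2(CPM + 10) they were 0 and 0, which follows from the smaller differences on that scale. With summed CPM they were 11 and 41 of 4796 described genes, sharing 0 and 2 genes with the main calls. Nuclei with at least 100 CPM of Slc17a7 and no Gad read gave 15 lower genes of 4797 described. Without nuclei with glial or mitochondrial reads there were 12 and 18 of 4757 (4 and 4 shared). Without Foxp2 reads there were 23 and 18 of 4811, and with a Cux2 read 279 and 222 of 4818, from 10 nuclei. Y-linked reads alone, an alternative chosen after seeing the data, gave 54 and 28 of 4857 (5 and 6 shared). A share of nuclei of at least 40% gave 3 higher genes, of only 1766 described. The causes were not tested. Counting vectors with at least 5 nuclei kept 3 of the 7 higher genes. Leaving out 1 vector gave 7 to 11 higher genes (11 without AiE0078h, AiE0140h or AiE0387m) and 8 to 15 lower (15 without AiE0447h), and in edgeR 0 to 0. DESeq2 gave 248 lower genes. Cacng3 and Kif5c were each past the limit in 22 of 23 settings, Ccdc88a in 12. All 23 settings drew on the same 31 AiE0445h_3xC2 nuclei, and none was the second set or the nuclei with Xist alone. Signs reversed for Gramd1a with Xist reads (-0.38), and in the second set for Lage3 (-0.71), Cacng3 (0.60), Kif5c (2.96), Tardbp (0.76), Ncl (2.78), Gfra4 (2.56) and Bex2 (3.63). Of 399 list medians over 21 settings, 391 moved by less than the spread between vectors, and 5 of the 8 others came from nuclei with a Cux2 read. Leaving out 1 of 10 vectors can move a mean only little, and the second set was not among these settings. That count is therefore no independent support. No paired analysis was possible because the shared numbers only name nuclei. With 31 nuclei, a gene without a read may be in up to 9.68% of nuclei.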
